A study of Mus musculus with 9 samples.

Results

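Ribosome-bound RNA was compared between mice kept awake with a GFP-Fxr1 fusion overexpressed in the medial prefrontal cortex (mPFC) and mice kept awake with GFP alone. The comparison takes 6 of the 9 libraries of the series, 3 for each group, and all differences are given as Fxr1 minus control. All animals were adult C57BL/6 mice, the material is labelled as neurons of the mPFC, and RNA was pulled down with tagged ribosomes (RiboTag) and sequenced as total RNA with a strand-marking kit. The series' other 3 libraries, from sleeping mice with GFP alone, are given beside some genes for their level only. The vector, the driver of the ribosomal tag, the length of enforced wake, and whether a library is 1 animal or a pool are not given in the sources used here. No source says that libraries of 1 group are of different animals, and p-values here reflect sample-to-sample spread that may be technical only. The values are FPKM, fragments per kilobase of transcript relative to all mapped fragments, summed over the transcripts of each gene symbol. Of 47593 gene symbols, 14563 had a mean of at least 0.5 FPKM over the 6 libraries and were tested, 12407 of them protein-coding.

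Fxr1 belongs, with Fmr1 and Fxr2, to the fragile X family of RNA-binding proteins, which bind messenger RNAs and polyribosomes and take part in local translation near synapses. In neurons Fxr1 is a target of the kinase Gsk3, and it has been studied in mood-related behaviour, in sleep and in the scaling of synaptic strength by AMPA receptors. Wakefulness raises immediate early genes in the cortex, a class of genes transcribed within minutes of neuronal activity through factors such as CREB and SRF. RiboTag pull-down enriches RNA held by the ribosomes of the tagged cells, and it also carries over some RNA of other cells.

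A library number below is the replicate number of its title, and where 2 sets of values are set against each other the 3 controls come first. The libraries differed in ways that touch most genes, and these are given before the results. Fxr1 library 1 stood apart: on the first principal component, with 73.5% of the variance over the 6 libraries, it scored 64.8, Fxr1 libraries 2 and 3 scored 12.1 and 4.9, and the controls -30.8 to -25.1. Across genes, a library's deviation from the 6-library mean rose with GC content in the controls (Spearman correlation 0.65 to 0.74) and fell with it in the Fxr1 libraries (-0.80, -0.41 and -0.31). Protein-coding genes took 85.3% to 86.3% of summed FPKM in the controls and 89.6% to 93.4% with GFP-Fxr1. The smallest steps in the values put the depth at 2.99e7 to 3.07e7 fragments in the controls and 3.39e7 to 3.73e7 with GFP-Fxr1. Every Fxr1 library was thus deeper than every control. Each gene is therefore given in up to 3 ways: over all 6 libraries, without Fxr1 library 1, and detrended, that is after the trend of each library with GC content and transcript length was subtracted. Detrending also takes away any change that follows GC content for another reason. The part of base composition in the results below was not otherwise tested.

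**Figure D1:**
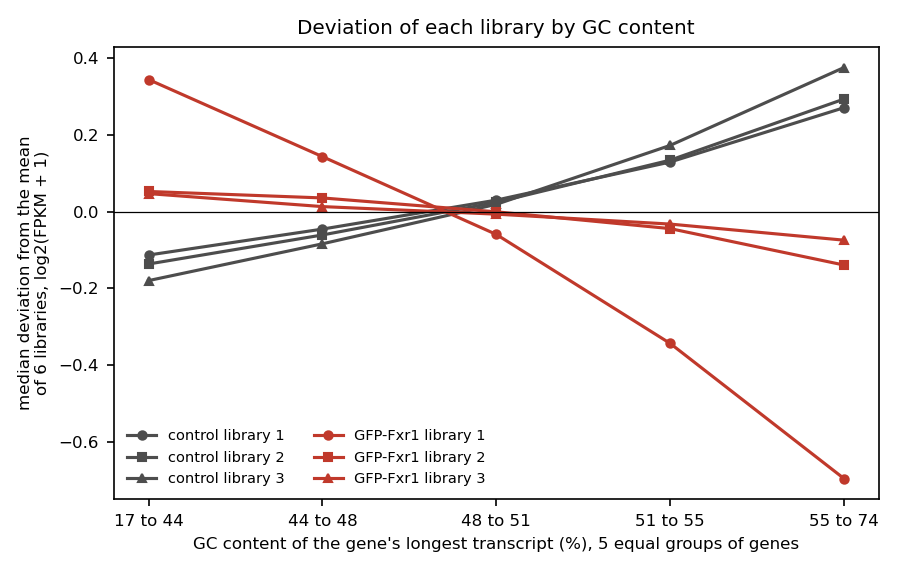
Median deviation of each of the 6 libraries from their mean, on the log2(FPKM + 1) scale, in 5 equal groups of genes ordered by GC content. In the highest group the controls lie at 0.27 to 0.38, Fxr1 library 1 at -0.70 and Fxr1 libraries 2 and 3 at -0.14 and -0.07.

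Fxr1 itself (ENSMUSG00000027680, chr3:34019943-34070322 in GRCm38) had 34.8, 33.9 and 31.1 FPKM in the 3 controls and 91.1, 67.7 and 71.8 FPKM in the 3 Fxr1 libraries. Every Fxr1 library was above every control, as the labels say, and the sleep libraries were at 31.7, 34.8 and 31.0 FPKM. The gene rose by 1.17 in log2(FPKM + 1), with an SE of 0.13 (limma adjusted p = 0.0366), by 1.05 without Fxr1 library 1 (limma adjusted p = 0.00306) and by 0.85 after detrending (limma adjusted p = 0.00656). Reads from the introduced and the native gene cannot be told apart in these values. Among the transcripts, ENSMUST00000001620 had 10.9, 9.34 and 8.85 FPKM in the controls and 23.1, 21.02 and 19.9 FPKM with GFP-Fxr1 (limma adjusted p = 0.0232). A second form, ENSMUST00000197694, had 3.12, 3.58 and 3.16 FPKM against 15.9, 10.8 and 12.6 FPKM (limma adjusted p = 0.0168). The most abundant form, ENSMUST00000200392, had 19.3, 20.7 and 17.6 FPKM against 48.4, 33.4 and 35.6 FPKM, with no overlap between the groups, and missed the threshold (limma adjusted p = 0.0972; 0.0312 without Fxr1 library 1).

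The 2 relatives of Fxr1 did not pass over the 6 libraries. Fmr1, whose loss causes fragile X syndrome, had 32.2, 32.3 and 29.8 FPKM in the controls and 51.2, 39.3 and 38.5 FPKM with GFP-Fxr1 (log2 difference 0.43, limma adjusted p = 0.0895). Fxr2, the third member, had 35.4, 36.2 and 35.9 FPKM against 18.7, 27.1 and 27.7 FPKM (log2 difference -0.55, limma adjusted p = 0.088). The groups did not overlap for either gene, with Fmr1 higher and Fxr2 lower, and both genes passed without Fxr1 library 1 (0.30 and -0.37, limma adjusted p = 0.0239 and 0.00961). That fit called 5.67% of all genes higher and 17.0% lower. After detrending the differences were 0.09 for Fmr1 and 0.15 for Fxr2. Of 19 genes whose proteins bind fragile X proteins or act with them on messenger RNA, none passed. Their median log2 difference was 0.11, against 0.14 without Fxr1 library 1 and -0.05 after detrending. Pura, a single-stranded nucleic acid binding protein of RNA granules, had 52.8, 51.6 and 49.5 FPKM in the controls and 93.5, 73.3 and 71.0 FPKM with GFP-Fxr1. Stau2, a double-stranded RNA binding protein of dendritic transport, had 44.3, 42.7 and 47.2 FPKM against 67.2, 58.1 and 60.5 FPKM. These 2 genes and Purb, the close relative of Pura, passed without Fxr1 library 1 (limma adjusted p = 0.00689, 0.0136 and 0.0122), in the fit that called 5.67% of all genes higher. After detrending none of the 19 passed. Cyfip1 and Cyfip2, which link fragile X proteins to actin remodelling, had log2 differences of -0.12 and -0.19 (limma adjusted p = 0.388 and 0.16).

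With a threshold of 0.05 on the limma adjusted p, 60 of 14563 genes (0.412%) passed. Of these 12 were higher with GFP-Fxr1 (0.0824% of genes) and 48 lower (0.33%), and 5582 genes had an unadjusted p under 0.05. The groups did not overlap in far more genes: all 3 Fxr1 libraries were above all controls in 20.3% of genes and below all controls in 32.3%, the shares against which each count without overlap below is read. The median log2 difference over all genes was -0.06. Each of the 60 genes also passed without Fxr1 library 1, where 825 genes were higher (5.67%) and 2475 lower (17.0%). After detrending 17 genes were higher (0.117%) and 27 lower (0.185%), and 26 of the 60 were among them. With protein-coding totals made equal 11 were higher and 25 lower, and centring the libraries on the median of protein-coding genes moved the median of all genes by 0.14. Only 4, 2 and 2 genes passed without control library 1, 2 or 3, 4 without Fxr1 library 2 and 50 without Fxr1 library 3. Of the 60, 3, 2 and 2 passed without control library 1, 2 or 3, 3 without Fxr1 library 2 and 24 without Fxr1 library 3, and all 60 kept their sign in each of these fits. An exact permutation test on a single gene cannot go below p = 0.1 with 3 libraries against 3.

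**Figure D2:**
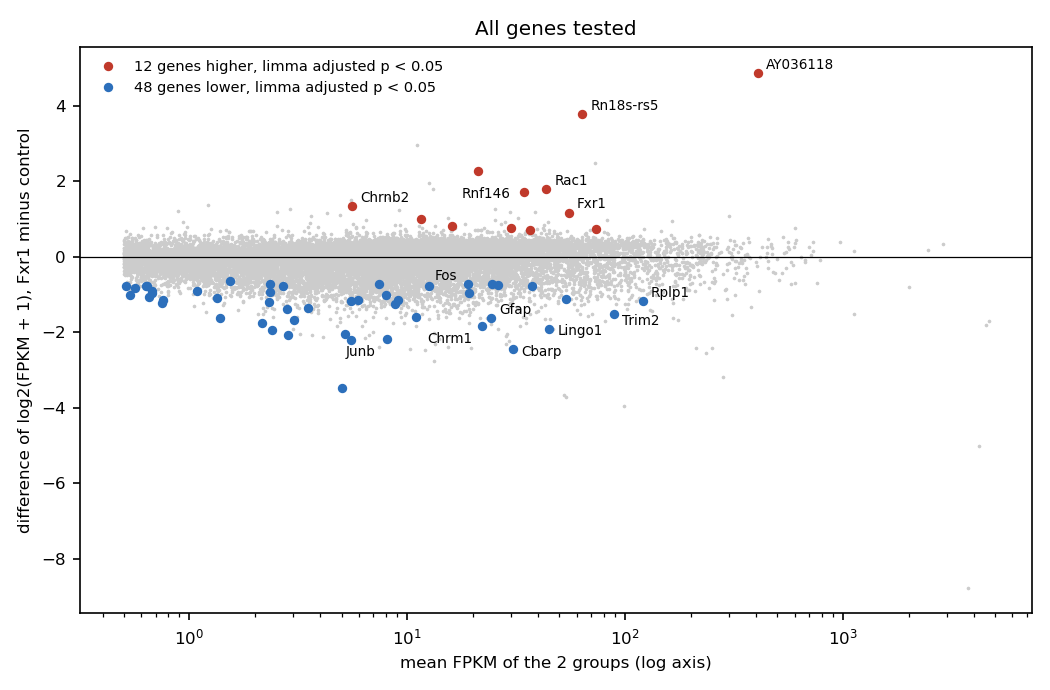
Difference of log2(FPKM + 1), Fxr1 minus control, against the mean FPKM of the 2 groups for the 14563 genes tested. The 12 genes higher (red) and 48 lower (blue) at a limma adjusted p under 0.05 are marked, and more of the passing genes lie below 0 than above it.

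Rac1 had the smallest p of the protein-coding genes. This small GTPase (ENSMUSG00000001847, chr5:143503634-143528036), which drives actin assembly in dendritic spines, had 19.5, 18.4 and 18.6 FPKM in the controls and 69.4, 68.8 and 65.7 FPKM with GFP-Fxr1. The 2 groups lay far apart and within each the libraries were close together, with 68.1, 67.8 and 68.4 FPKM in sleep. It passed in each of the 6 leave-one-out fits and rose by 1.80 (SE 0.08, limma adjusted p = 0.00109), and by 1.81 after detrending (limma adjusted p = 0.000344). Nearly all of it was transcript ENSMUST00000080537, at 18.2, 17.8 and 17.9 FPKM in the controls and 65.8, 67.6 and 65.0 with GFP-Fxr1. Rnf146 (ENSMUSG00000038876, chr10:29344176-29362442), a ubiquitin ligase that recognises poly-ADP-ribosylated proteins, had 14.9, 15.1 and 14.9 FPKM in the controls and 71.8, 41.4 and 47.2 FPKM with GFP-Fxr1. It rose by 1.73 (SE 0.20, limma adjusted p = 0.0375), with no overlap between the groups.

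Chrnb2 (ENSMUSG00000027950, chr3:89746195-89764632), the beta-2 subunit of neuronal nicotinic acetylcholine receptors, had 2.95, 2.45 and 2.81 FPKM in the controls and 7.08, 8.90 and 9.44 FPKM with GFP-Fxr1. It rose by 1.33 (SE 0.13, limma adjusted p = 0.0263), and Fxr1 library 1 was here the lowest of the 3 Fxr1 libraries. Detrending gave 1.64 (limma adjusted p = 0.00149). The sleep libraries spread widely, at 9.83, 2.37 and 2.33 FPKM. Klhdc10, a kelch-repeat substrate receptor of ubiquitin ligases, rose by 0.76 (limma adjusted p = 0.0375), from 22.0 ± 0.723 to 38.1 ± 2.78 FPKM (mean ± SD, n = 3). Rpe, an enzyme of the pentose phosphate pathway, rose by 0.99 (limma adjusted p = 0.0454), from 7.36 ± 0.289 to 15.8 ± 2.62 FPKM. Both also passed after detrending. Tfrc, the transferrin receptor through which cells take up iron, had 26.1, 28.6 and 28.2 FPKM against 45.0, 46.1 and 46.0 FPKM, and Atp2c1, the calcium and manganese pump of the Golgi, 56.4, 54.7 and 53.3 FPKM against 89.4, 93.8 and 93.6 FPKM. They rose by 0.71 and 0.74 (limma adjusted p = 0.0366 and 0.0294), as did Pcmtd1 by 0.83, and these 3 genes lost the call after detrending (limma adjusted p = 0.153, 0.13 and 0.102). The remaining 3 of the 12 are a gene model named only by number, Gm20390, and 2 models of ribosomal RNA sequence described further down.

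**Figure D3:**
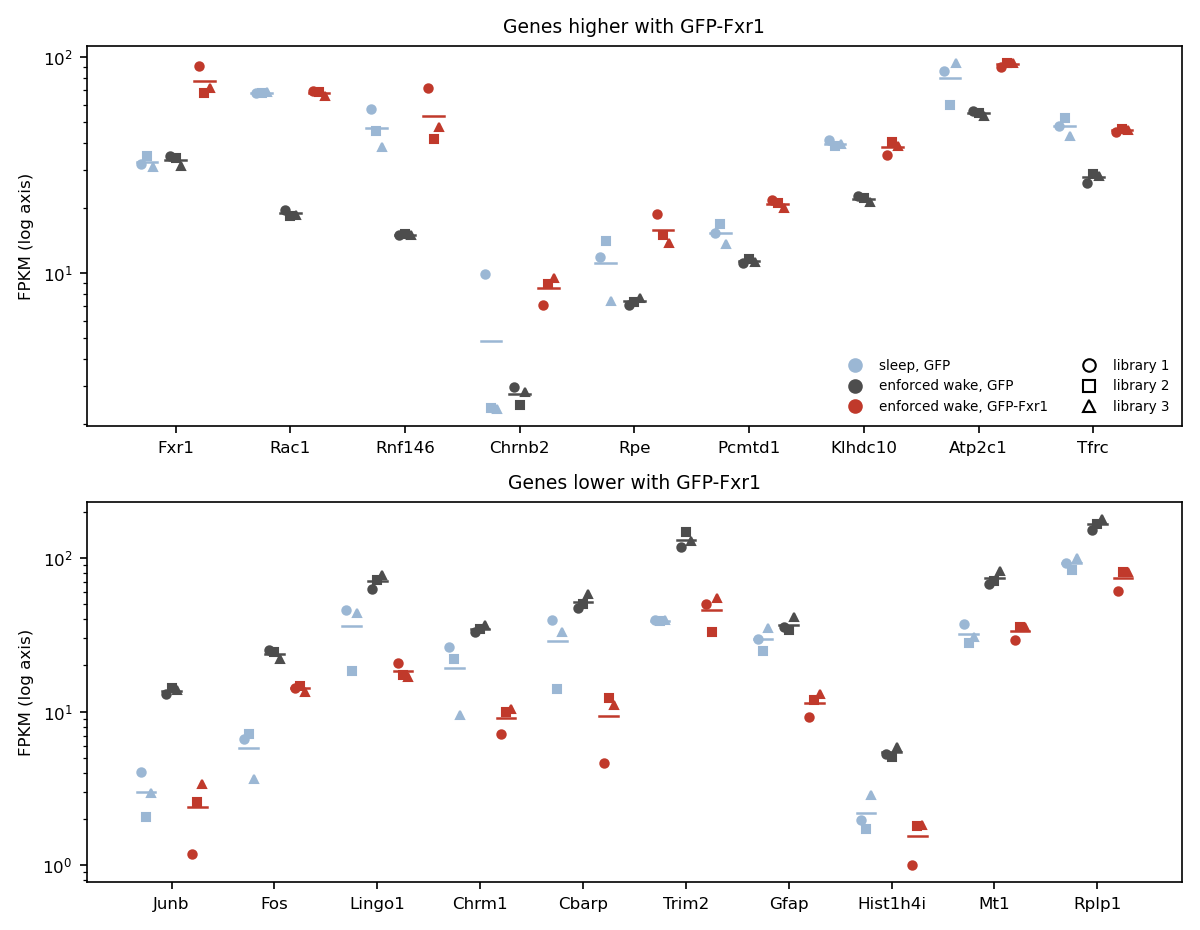
FPKM (log axis) of 9 genes that rose and 10 that fell with GFP-Fxr1, in sleep (light blue), enforced wake with GFP (grey) and enforced wake with GFP-Fxr1 (red). Points are libraries 1 to 3 and short lines are group means, and in all 19 genes the red and the grey points do not overlap.

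Among immediate early transcription factors, 2 of 20 tested fell, Junb and Fos, and none rose. Junb and Fos encode partners of the AP-1 transcription factor and are induced by neuronal activity. Their promoters are shown because both genes carry the CRE core TGACG, part of the element bound by CREB, just before the start. The 250 bases before the RefSeq start (GRCm38.p6) are printed from 5′ to 3′ on the gene's own strand. Capitals mark TGACG and, in Fos, the TATAAA box. A match is a run of letters, not a shown binding site. Fos lies on the plus strand at chr12:85473640-85473889, and Junb on the minus strand at chr8:84978749-84978998.
Fos: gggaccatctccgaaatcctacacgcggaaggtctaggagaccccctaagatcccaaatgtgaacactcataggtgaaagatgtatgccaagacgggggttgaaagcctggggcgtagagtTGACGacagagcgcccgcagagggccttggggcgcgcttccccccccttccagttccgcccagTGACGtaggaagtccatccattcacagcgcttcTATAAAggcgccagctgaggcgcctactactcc
Junb: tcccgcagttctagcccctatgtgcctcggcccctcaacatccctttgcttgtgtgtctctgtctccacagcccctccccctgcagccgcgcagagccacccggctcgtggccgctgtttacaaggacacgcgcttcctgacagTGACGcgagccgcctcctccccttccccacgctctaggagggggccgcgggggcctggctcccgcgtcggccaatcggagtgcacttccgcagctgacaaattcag
Searched on both strands, TGACG occurred in these 250 bases in 12 of the 16 listed genes that had a promoter entry, and in 19.8% of all 27025 genes with one. The full element TGACGTCA, which contains that core, was found in 1 of the 16, the AP-1 site TGANTCA in none (7.82% of all genes), and TATAAA in 2, Fos and Nr4a2 (14.3%). The CArG box, the element bound by SRF, was found in 1, Egr2 (1.62% of all genes). Arc had no entry.

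Junb (ENSMUSG00000052837, chr8:84974484-84978718), whose promoter is the second above, had 13.0, 14.3 and 13.9 FPKM in the controls and 1.19, 2.60 and 3.38 FPKM with GFP-Fxr1. All 3 Fxr1 libraries were far below the controls, with library 1 the lowest, and sleep was at 4.04, 2.06 and 2.97 FPKM. The gene fell by 2.18 on the log2 scale (SE 0.25, limma adjusted p = 0.0375), with -1.89 without Fxr1 library 1 and -1.31 after detrending (limma adjusted p = 0.00215 and 0.0065). Fos (ENSMUSG00000021250, chr12:85473890-85477273) had 25.1, 24.4 and 22.1 FPKM in the controls and 14.3, 14.8 and 13.5 FPKM with GFP-Fxr1. Here the 3 Fxr1 libraries were close together, below every control and above the sleep libraries at 6.62, 7.11 and 3.65 FPKM. Fos fell by 0.71 (SE 0.09, limma adjusted p = 0.0443) and no longer passed after detrending (-0.52, limma adjusted p = 0.102).

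The other members of the list passed no test over the 6 libraries, but 16 of the 20, or 80.0% beside 32.3% of all genes, were lower in every Fxr1 library than in any control, and none was higher. The median of the list was -0.52, against -0.48 without Fxr1 library 1 and -0.03 after detrending. Without Fxr1 library 1, 12 of the 20 were lower and none higher, in a fit that called 17.0% of all genes lower. All 6 tested FOS and JUN genes, a subset that is not a list of its own, were lower without overlap. Their median was -0.68, against -0.15 after detrending, where 1 of the 6 passed. Nr4a1, an orphan nuclear receptor, had 37.3, 37.6 and 35.3 FPKM in the controls and 14.2, 21.8 and 20.9 FPKM with GFP-Fxr1 (limma adjusted p = 0.0683). Npas4, a factor that shapes inhibitory synapses, had 5.40, 4.89 and 4.73 FPKM against 1.68, 2.85 and 2.96 FPKM (limma adjusted p = 0.0878), and Egr1, a zinc finger factor, 52.4, 55.1 and 53.8 FPKM against 40.5, 45.4 and 40.2 FPKM (limma adjusted p = 0.0878). All 3 genes were lower in each Fxr1 library, and their detrended differences were -0.34, -0.17 and 0.27.

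Immediate early effectors, the activity-induced genes that act at synapses or in signalling, lay on both sides. None of 33 passed, 16 were lower without overlap (48.5%, beside 32.3% of all genes) and 6 higher (18.2%, beside 20.3%), and the median was -0.32, against -0.22 without Fxr1 library 1 and -0.05 after detrending. Arc, which drives AMPA receptor uptake, had 99.2, 97.5 and 107 FPKM in the controls and 14.8, 49.5 and 56.8 FPKM with GFP-Fxr1. All 3 Fxr1 libraries were below the controls, with library 1 far below the other two. The difference was -1.51 (limma adjusted p = 0.0925) over all libraries and -0.92 without that library (limma adjusted p = 0.00484). The second fit called 17.0% of all genes lower. After detrending none of the 33 genes passed. Btg2, an antiproliferative cofactor, had 4.84, 5.26 and 4.42 FPKM against 2.79, 2.90 and 2.79 FPKM (limma adjusted p = 0.0592), and Sik1, a salt-inducible kinase linked to sleep need, 3.74, 3.59 and 3.84 FPKM against 2.20, 2.46 and 2.31 FPKM (limma adjusted p = 0.0678). Gadd45g, a growth-arrest gene, had 3.99, 3.63 and 3.84 FPKM against 0.723, 1.53 and 1.77 FPKM (limma adjusted p = 0.0678). Homer1, a postsynaptic scaffold with an activity-induced short form, lay the other way at 184, 200.1 and 186 FPKM against 284, 233 and 225 FPKM (limma adjusted p = 0.0912), and its detrended difference was -0.01. Bdnf, the neurotrophin, overlapped between groups at 27.0, 30.7 and 25.9 FPKM against 33.7, 30.1 and 28.0 FPKM.

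Several passing genes encode receptors, channels or their regulators. Chrm1 (ENSMUSG00000032773, chr19:8663789-8683587), the M1 muscarinic acetylcholine receptor, had 33.2, 34.4 and 36.7 FPKM in the controls and 7.15, 9.93 and 10.4 FPKM with GFP-Fxr1. It fell by 1.83 (SE 0.14, limma adjusted p = 0.0218), and by 1.53 after detrending (limma adjusted p = 0.000755). The sleep libraries had 26.2, 21.9 and 9.50 FPKM. Lingo1 (ENSMUSG00000049556, chr9:56618475-56796468), a transmembrane protein that restrains axon growth and myelination, had 63.1, 72.3 and 77.9 FPKM in the controls and 20.6, 17.5 and 16.8 FPKM with GFP-Fxr1. It fell by 1.902 (SE 0.12, limma adjusted p = 0.00888), and did not pass after detrending (limma adjusted p = 0.116). Its main transcript, ENSMUST00000053568, had 45.5, 56.5 and 56.1 FPKM in the controls and 20.6, 15.0 and 14.6 FPKM with GFP-Fxr1. In sleep that form had 35.7, 14.6 and 37.1 FPKM, with library 2 at the level of the Fxr1 libraries.

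Cbarp (ENSMUSG00000035640, chr10:80130451-80140835), a negative regulator of voltage-gated calcium channels, had 47.2, 50.4 and 58.5 FPKM in the controls and 4.66, 12.3 and 11.0 FPKM with GFP-Fxr1. It fell by 2.45 (SE 0.32, limma adjusted p = 0.0463), the largest fall among the 51 passing protein-coding genes, and by 1.52 after detrending (limma adjusted p = 0.00936). Kcnmb4 (ENSMUSG00000054934, chr10:116417861-116473878), the neuronal beta-4 subunit of BK potassium channels, had 33.3, 30.7 and 34.9 FPKM against 18.5, 20.3 and 19.6 FPKM and fell by 0.73 (limma adjusted p = 0.0409). Trim2 (ENSMUSG00000027993, chr3:84160439-84306877), a neuronal ubiquitin ligase of neurofilament light chain, had 118, 148 and 129 FPKM against 50.3, 32.9 and 55.3 FPKM and fell by 1.52 (limma adjusted p = 0.0495). Both passed after detrending, where Trim2 was at -1.64, and neither group of Fxr1 libraries overlapped its controls. Psmf1, an inhibitor of the proteasome, fell by 1.17 (limma adjusted p = 0.0454), from 8.02 ± 0.546 to 3.06 ± 0.702 FPKM. Ccdc85b and Wdr83 fell by 1.75 and 1.13 (limma adjusted p = 0.0463 and 0.0245), and these 3 also passed after detrending. Among the other large falls, Ydjc (-1.68), the poly(C)-binding protein gene Pcbp4 (-1.58) and the cytochrome oxidase gene Cox6b2 (-1.38) did not pass after detrending. Further falls, named after their values were seen, were those of Dap3, a GTPase of the mitochondrial ribosome (-0.72), S100a1, a calcium-binding protein (-0.77), Skiv2l, a helicase of the cytoplasmic exosome (-0.73), and Mdk, the growth factor midkine (-0.90). Their limma adjusted p-values were 0.0457, 0.0409, 0.049 and 0.049, and none of the 4 passed after detrending.

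Histone genes were lower nearly throughout. Of 20 tested in the list of replication-dependent histones, whose messenger RNAs end in a stem loop instead of a poly(A) tail, 3 fell and none rose. 19 were lower without overlap (95.0% beside 32.3% of all genes) and 1, Hist2h2be, was higher, and the median was -0.98, against -0.75 without Fxr1 library 1 and -0.58 after detrending. Over all 53 tested symbols that begin with Hist, a set chosen after the values were seen, 50 were lower without overlap and 7 passed. Hist1h4i, one of the genes for histone H4, had 5.35, 5.05 and 5.93 FPKM in the controls and 1.005, 1.79 and 1.83 FPKM with GFP-Fxr1, and fell by 1.36 (limma adjusted p = 0.0375; 0.0177 after detrending). Hist1h4a and Hist1h4b fell by 2.04 and 2.21 (limma adjusted p = 0.0375 and 0.0454) and also passed after detrending. Hist1h1c, a linker histone, fell by 1.001 and Hist4h4 by 0.76 (limma adjusted p = 0.0477 and 0.0443), neither after detrending (limma adjusted p = 0.0816 and 0.0663). Histone genes are near-identical copies, so which copy the reads belong to is uncertain. The summed FPKM of the list was 225 to 226 in the controls, 68.3 to 113 with GFP-Fxr1 and 125 to 155 in sleep. Genes annotated as miscellaneous RNA also took a smaller share of these libraries, as given further down, and the part of RNA capture in the histone values was not tested.

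Genes of cytosolic ribosomal proteins lay lower by small amounts. Of 48 genes of the large ribosomal subunit, 29 were lower without overlap (60.4%) and 2 higher. The median was -0.35, against -0.24 without Fxr1 library 1 and -0.22 after detrending. Only Rplp1, an acidic protein of the ribosomal stalk, passed: it had 153, 166 and 180.03 FPKM in the controls and 60.8, 80.9 and 81.6 FPKM with GFP-Fxr1 and fell by 1.16 (limma adjusted p = 0.0409; 0.164 after detrending). Of 33 genes of the small subunit 22 were lower without overlap (66.7%), none was higher and none passed, with a median of -0.35, against -0.28 without Fxr1 library 1 and -0.20 after detrending. Rps29 came closest, with 211, 234 and 228 FPKM against 84.0, 125 and 106 FPKM (limma adjusted p = 0.053), and passed after detrending (-0.73, limma adjusted p = 0.0393). None of the 72 listed genes of the mitochondrial ribosome passed, with Mrpl12 at -0.89 and Mrpl28 at -0.78. Without overlap 6 were higher and 21 lower (8.3% and 29.2%, beside 20.3% and 32.3% of all genes). The median was -0.11, against -0.10 without Fxr1 library 1 and -0.02 after detrending, where 1 gene passed, a higher one. Dap3, whose fall is given above, also belongs to that ribosome but was not in the list. None of 38 translation factors passed either. Their median of -0.07 lay beside -0.06 for all genes, with 11 higher and 16 lower without overlap. Eif6, which keeps ribosomal subunits apart, had a difference of -0.82, and Eef1b2, an elongation factor subunit, of 0.36 (limma adjusted p = 0.0762 and 0.0878).

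In energy metabolism the medians of nuclear and of mitochondrially encoded genes had opposite signs. Of 21 genes of glycolysis and lactate handling 15 were lower without overlap (71.4%) and 1 was higher, the monocarboxylate transporter Slc16a7. None passed, and the median was -0.64, against -0.36 without Fxr1 library 1 and -0.14 after detrending. Hk1, the main hexokinase of brain, had 107, 101 and 105 FPKM in the controls and 48.2, 71.8 and 75.4 FPKM with GFP-Fxr1 (limma adjusted p = 0.0878). Aldoc, an aldolase strongest in astrocytes, had 77.2, 93.3 and 92.9 FPKM against 43.7, 53.2 and 53.2 FPKM (limma adjusted p = 0.0592), and Slc2a1, a glucose transporter, 8.92, 9.58 and 10.1 FPKM against 4.01, 6.11 and 6.93 FPKM (limma adjusted p = 0.0878). In all 3 genes Fxr1 library 1 was the lowest library. Of 74 nuclear genes of oxidative phosphorylation 32 were lower and 8 higher without overlap, with a median of -0.18, against -0.11 without Fxr1 library 1 and -0.03 after detrending. Ndufa2 and Ndufa8, subunits of complex I, had differences of -0.82 and -0.91 (limma adjusted p = 0.0878 and 0.088). The 15 genes encoded in mitochondrial DNA all had positive differences, with a median of 0.60, against 0.48 without Fxr1 library 1 and 0.31 after detrending, but their groups overlapped in all but 1. That gene, mt-Nd3, had 27.6, 31.5 and 35.1 FPKM against 67.3, 39.8 and 53.3 FPKM (limma adjusted p = 0.088). Mitochondrial transcripts carry little GC (median 36.0%), while the glycolysis list had a median of 52.8% and all tested genes 49.5%.

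Receptors for the main fast transmitters did not pass as single genes. Of the 4 AMPA receptor subunits 3 were higher without overlap, beside 20.3% of all genes. Gria2, the subunit that makes the receptor impermeable to calcium, had 118, 121 and 154 FPKM in the controls and 216, 185 and 181 FPKM with GFP-Fxr1 (log2 difference 0.57, limma adjusted p = 0.0878). Gria1, the subunit inserted during potentiation, overlapped at 87.0, 85.0 and 83.7 FPKM against 81.5, 87.5 and 89.3 FPKM (limma adjusted p = 0.908). Of 6 auxiliary subunits of the stargazin family 4 were lower, beside 32.3% of all genes, and none higher without overlap. Cacng8, one of them, had 17.4, 17.4 and 17.4 FPKM in the controls and 2.32, 5.11 and 6.00 FPKM with GFP-Fxr1. It missed the threshold over the 6 libraries (-1.82, limma adjusted p = 0.0585) and passed both without Fxr1 library 1 (-1.496, limma adjusted p = 0.00206) and after detrending (-0.86, limma adjusted p = 0.0181). The 4 subunits had a median of 0.33 over the 6 libraries and 0.11 after detrending. For the 6 auxiliary subunits it was -0.29 and turned to 0.06. Both subsets were formed after the values were seen, and Cacng8 was singled out the same way. The whole AMPA list of 19 genes had a median of -0.04, against -0.01 without Fxr1 library 1 and 0.12 after detrending, with Grip2, an anchoring protein, at -0.80.

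Among GABA genes, 9 of the 12 tested alpha, beta, gamma and delta subunits of the GABA-A receptor were higher without overlap, beside 20.3% of all genes. Of the same 12, 1, Gabrd, was lower. This subset is not a list of its own. Its median was 0.39, against 0.28 without Fxr1 library 1 and 0.06 after detrending, where none of the 12 passed. Gabrb2, a main beta subunit, had 82.2, 82.5 and 79.8 FPKM in the controls and 118, 105 and 104 FPKM with GFP-Fxr1 (log2 difference 0.41, limma adjusted p = 0.0878), and Gabrg3 had 7.85, 7.62 and 7.61 FPKM against 11.5, 9.76 and 10.1 FPKM (limma adjusted p = 0.0878). Genes of GABA synthesis and handling were lower in part. Slc32a1, the vesicular GABA transporter, had 7.29, 7.18 and 8.08 FPKM against 2.40, 4.63 and 4.62 FPKM (limma adjusted p = 0.0878), and Gad1, the GABA-synthesising enzyme, 133, 112 and 128 FPKM against 104, 102 and 110.0 FPKM (limma adjusted p = 0.129). The list of 20 genes had 11 higher and 6 lower without overlap, and a median of 0.30, against 0.19 without Fxr1 library 1 and 0.06 after detrending. For the 12 NMDA and kainate receptor genes the median was 0.14, against 0.06 without Fxr1 library 1 and 0.06 after detrending, with Neto2 at 0.52, Grik2 at 0.34 and Grin2c at -0.56. For the 7 metabotropic glutamate receptors it was 0.05, against 0.00 without Fxr1 library 1 and 0.02 after detrending. Grm2 had 5.59, 6.13 and 6.96 FPKM against 1.58, 2.86 and 3.47 FPKM, Grm5 66.2, 68.3 and 62.0 FPKM against 98.0, 81.0 and 81.9 FPKM, and the 2 lay on opposite sides without overlap (limma adjusted p = 0.0878 and 0.0878).

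At the postsynaptic side, 15 of 30 scaffold and kinase genes were lower and 5 higher without overlap, and none passed (median -0.28, against -0.20 without Fxr1 library 1 and 0.00 after detrending). Camk4, a nuclear calcium kinase, had 46.7, 47.1 and 48.2 FPKM against 73.4, 63.1 and 65.8 FPKM (limma adjusted p = 0.0703), and its difference was 0.50 after detrending. The 32 active zone and vesicle genes had 8 higher and 11 lower without overlap and a median of -0.11, with the scaffold genes Bsn at -0.91, Rimbp2 at -0.84 and Erc2 at 0.31. Of 23 synaptic adhesion genes only Lingo1 passed (median 0.01), and Nrxn2, a presynaptic neurexin, had 26.4, 28.2 and 31.6 FPKM against 9.88, 15.2 and 16.8 FPKM (limma adjusted p = 0.0806). Of 32 potassium channel genes 10 were higher and 10 lower without overlap, with Kcnj4 at -1.32 and Kcnh7 at 0.51. Of 24 sodium and calcium channel genes only Cbarp passed, with Cacna1g at -0.66. The medians of the 2 channel lists were -0.02 and -0.26, and 0.09 and 0.01 after detrending.

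Gsk3 phosphorylates Fxr1, and its pathway showed no passing gene. Gsk3b had 54.5, 40.8 and 58.3 FPKM in the controls and 65.3, 62.1 and 60.8 FPKM with GFP-Fxr1 (limma adjusted p = 0.161). The 18 Gsk3 and Akt genes had a median of -0.08, against -0.03 without Fxr1 library 1 and 0.03 after detrending, with 6 higher and 8 lower without overlap. Pdpk1, the kinase that activates Akt, had 72.4, 71.9 and 71.4 FPKM against 54.0, 59.7 and 51.0 FPKM (limma adjusted p = 0.0878).

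None of 22 clock genes passed, 12 were lower and 4 higher without overlap, and the median was -0.22, against -0.14 without Fxr1 library 1 and 0.02 after detrending. Per1, a clock repressor also induced by activity, had 12.5, 12.3 and 14.5 FPKM in the controls and 3.35, 7.05 and 7.22 FPKM with GFP-Fxr1, and Per2 8.79, 8.97 and 9.54 FPKM against 5.28, 6.76 and 6.56 FPKM (limma adjusted p = 0.0878 and 0.0878). Their levels in sleep were 5.83, 7.43 and 5.90 FPKM for Per1 and 3.20, 3.30 and 3.62 FPKM for Per2. Dbp and Ciart, outputs of the clock, had differences of -0.69 and -0.47 (limma adjusted p = 0.0878 and 0.0878), and all 4 genes were lower in every Fxr1 library than in any control. Detrending gave -0.34, -0.09, 0.14 and -0.25. The 2 cold-inducible genes split: Rbm3 overlapped at 30.7, 22.4 and 29.0 FPKM against 32.5, 25.9 and 27.8 FPKM, while Cirbp had 21.9, 20.4 and 20.4 FPKM against 11.3, 16.7 and 18.2 FPKM without overlap (limma adjusted p = 0.713 and 0.118).

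Chaperones of the endoplasmic reticulum showed no passing gene among 25, with 5 higher and 8 lower without overlap (shares near the 20.3% and 32.3% of all genes) and a median of -0.09, against -0.04 without Fxr1 library 1 and 0.05 after detrending. Hspa5, the main chaperone of that compartment, overlapped at 182, 188 and 128 FPKM against 186, 129 and 111 FPKM (limma adjusted p = 0.454). Sdf2l1, one of its partners, had 18.1, 17.4 and 18.1 FPKM against 10.6, 12.6 and 10.5 FPKM (limma adjusted p = 0.06), and Atf6, a sensor of unfolded proteins, 29.6, 31.4 and 31.3 FPKM against 39.6, 38.9 and 41.2 FPKM (limma adjusted p = 0.0878). Among 20 cytosolic heat shock genes Hspa1a, an inducible Hsp70, fell by 0.78 (limma adjusted p = 0.0366), from 3.74, 3.60 and 3.63 to 1.62, 1.82 and 1.70 FPKM. Detrending left -0.05, and its near-identical copy Hspa1b was at -0.58 (limma adjusted p = 0.0878). Mt1, a metal-binding metallothionein outside the lists, fell by 1.11 (limma adjusted p = 0.0366), from 67.8, 70.5 and 82.8 to 29.5, 35.8 and 35.6 FPKM, with -0.26 after detrending.

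No gene passed in 5 further lists. The 31 proteasome subunits had a median of -0.01 with 9 higher and 11 lower without overlap, Psmd3 at -1.03 and Psma4 at 0.37. The 20 genes of cholesterol synthesis had a median of 0.04 with 7 higher and 7 lower without overlap, Mvk at -0.90 and Fdps at -0.46. The 12 glucocorticoid-responsive genes had a median of -0.15 with 1 higher and 2 lower, Cdkn1a at -0.44 and Zbtb16 at -0.45. The 22 SR splicing factors and kinases had a median of 0.20, against 0.09 without Fxr1 library 1 and 0.00 after detrending, and the 21 hnRNP genes of 0.14, against 0.09 without Fxr1 library 1 and 0.03 after detrending. Srsf6 and Srsf2, which bind exonic enhancers, had differences of 0.45 and 0.32, and Syncrip, an hnRNP of transport granules, of 0.71 (limma adjusted p = 0.088, 0.0949 and 0.0878).

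**Figure D4:**
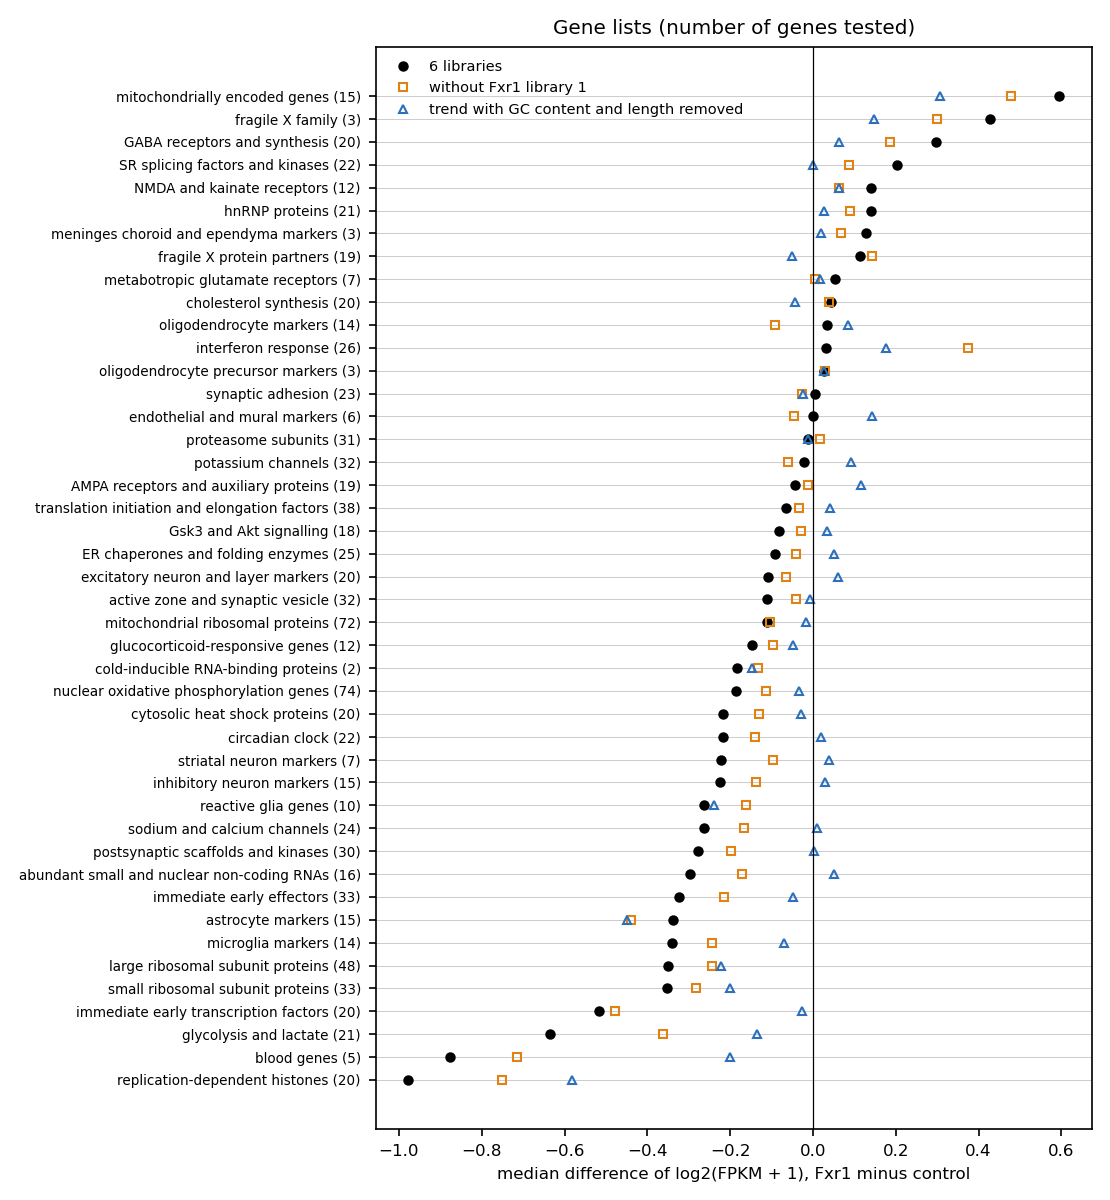
Median difference of log2(FPKM + 1), Fxr1 minus control, of the 44 gene lists, over 6 libraries (black), without Fxr1 library 1 (orange) and after detrending for GC content and length (blue), with the number of genes tested. The replication-dependent histones lie lowest at -0.98, -0.75 and -0.58, and the immediate early transcription factors move from -0.52 to -0.03 on detrending.

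The interferon response list changed with the library that stood apart. None of 26 genes passed over the 6 libraries, with 3 higher and 4 lower without overlap and a median of 0.03. Without Fxr1 library 1 the median was 0.37, and 9 genes were higher and none lower, in a fit that called 5.67% of all genes higher and 17.0% lower. The median turned negative without control library 2 (-0.10), Fxr1 library 2 (-0.12) or Fxr1 library 3 (-0.05). Ifit1, an antiviral RNA-binding protein, had 9.76, 5.17 and 7.77 FPKM in the controls, 7.19, 24.5 and 13.9 FPKM with GFP-Fxr1 and 5.48, 10.9 and 30.8 FPKM in sleep. Fxr1 library 1 lay within the range of the controls and libraries 2 and 3 above it, and the sleep libraries also differed from each other. Ifit1 was chosen after its values were seen. The 3 members with the smallest p lay the other way: H2-K1, a class I antigen-presenting molecule, had 13.9, 8.42 and 11.4 FPKM against 1.82, 4.26 and 7.87 FPKM (limma adjusted p = 0.0964), Psmb8 had a difference of -0.66 and Ifi27 of -0.55. The summed FPKM of the list was 238 to 333 in the controls, 198 to 395 with GFP-Fxr1 and 206 to 601 in sleep.

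Markers of neurons and of other cells were present in all libraries, and fewer cells of a type cannot be told apart from less RNA per cell. None of 20 excitatory or 15 inhibitory neuron markers passed, with 3 and 2 higher and 7 and 7 lower without overlap. Their medians were -0.11 and -0.23, against -0.07 and -0.14 without Fxr1 library 1 and 0.06 and 0.03 after detrending. Summed FPKM of the 20 excitatory neuron markers was 1012 to 1157 in the controls and 739 to 957 with GFP-Fxr1, and of the 15 inhibitory markers 975 to 991 and 715 to 863. Slc17a7, the vesicular glutamate transporter of cortical excitatory neurons, had 229.8, 239 and 269.7 FPKM against 98.3, 179 and 200.1 FPKM (limma adjusted p = 0.115; difference 0.02 after detrending). Neurod6 was at 0.45, Emx1 at -0.78, Nrgn at -0.82 and the interneuron peptide Sst at -0.49, with none passing. The 7 striatal markers, such as Penk (-0.28), overlapped between the groups in every gene, at summed FPKM of 120.4 to 131 and 93.8 to 131. No gene of the 11 marker lists was at 0 in all 6 libraries.

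The label of neurons was not exclusive, and among the other cells the astrocyte markers lay lower with GFP-Fxr1. Gfap (ENSMUSG00000020932, chr11:102887336-102900912), the intermediate filament of astrocytes, had 35.5, 34.1 and 41.2 FPKM in the controls, 9.27, 11.996 and 13.1 FPKM with GFP-Fxr1 and 29.7, 24.9 and 35.0 FPKM in sleep. It fell by 1.62 (SE 0.14, limma adjusted p = 0.0245), with -1.48 without Fxr1 library 1 and -1.12 after detrending (limma adjusted p = 0.00306 and 0.00656). Of the 15 markers 10 were lower without overlap (66.7%) and none higher. The median was -0.34, against -0.44 without Fxr1 library 1 and -0.45 after detrending, so that it did not shrink on detrending. The summed FPKM was 882 to 1116 in the controls and 664 to 763 with GFP-Fxr1. Fgfr3, a receptor of astrocytes, had 6.60, 7.37 and 9.78 FPKM against 2.77, 3.23 and 3.82 FPKM (limma adjusted p = 0.0592). Of 10 reactive glia genes, which include Gfap, 5 were lower and none higher without overlap, the median was -0.26, and C4b was at -1.03 and Vim at -0.72 (limma adjusted p = 0.06 and 0.0878).

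Trem2 (ENSMUSG00000023992, chr17:48346401-48354147), a lipid receptor of microglia, was the other glial gene that passed. It had 1.18, 1.199 and 1.13 FPKM in the controls and 0.117, 0.171 and 0.223 FPKM with GFP-Fxr1. Trem2 fell by 0.89 (SE 0.08, limma adjusted p = 0.0245; 0.0303 after detrending). Its values were near the floor. Every Fxr1 value lay below the filter on mean FPKM, which the gene passed only through its level in the controls. With the stricter filter given further down it was not tested. Of 14 microglia markers 8 were lower and 1 higher without overlap (median -0.34, against -0.24 without Fxr1 library 1 and -0.07 after detrending), with C1qa at -0.997, while Aif1 overlapped at 2.50, 2.47 and 2.13 FPKM against 1.68, 2.92 and 1.83 FPKM. The list summed to 59.6 to 67.4 FPKM in the controls and 46.7 to 56.4 FPKM with GFP-Fxr1. In the 14 oligodendrocyte markers 6 were lower and 3 higher without overlap (median 0.03, against -0.09 without Fxr1 library 1 and 0.09 after detrending). Mbp, the myelin basic protein, had 43.2, 47.9 and 51.9 FPKM against 25.7, 32.4 and 29.5 FPKM (limma adjusted p = 0.0678), and Mag was at -0.58. Summed FPKM was 166 to 191 and 151 to 171. In the low lists it was 6.02 to 7.60 and 5.28 to 7.18 for oligodendrocyte precursors, 17.4 to 18.8 and 16.2 to 21.5 for endothelial and mural cells, and 4.75 to 5.12 and 3.40 to 4.38 for meninges, choroid plexus and ependyma. Blood genes summed to 102 to 189 and 64.0 to 104, with Hba-a2 at 27.2, 48.9 and 45.2 FPKM against 18.2, 18.1 and 27.6 FPKM. None of the 3, 6, 3 and 5 genes tested in these 4 lists passed. The medians were 0.03, 0.00, 0.13 and -0.88, and 0.03, 0.14, 0.02 and -0.20 after detrending. In 4 of the 5 blood genes the groups overlapped. The part of glial RNA in the differences of other genes was not tested.

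Some of the largest differences lay in non-coding RNA. AY036118 (ENSMUSG00000105361, chr17:39847113-39848035) had 26.1, 28.6 and 13.3 FPKM in the controls, 371, 1472 and 531 FPKM with GFP-Fxr1 and 12.1, 15.8 and 45.0 FPKM in sleep. Rn18s-rs5 (ENSMUSG00000106106, chr17:39846353-39848827), an annotated ribosomal RNA sequence that overlaps it on the same strand, had 7.07, 7.88 and 5.91 FPKM against 72.3, 205 and 84.2 FPKM. Library 2 was the highest in both, the 2 models rose by 4.88 and 3.78 (limma adjusted p = 0.0366 and 0.0277), and their reads cannot be told apart. The part of leftover ribosomal RNA in other values was not tested. Rpph1, the RNA of ribonuclease P, lay the other way at 458, 494 and 523 FPKM against 15.9, 81.5 and 113 FPKM (limma adjusted p = 0.0878), and Rn7sk, a nuclear regulator of transcription elongation, had 2363, 2607 and 2607 FPKM against 1146, 1490.3 and 1821 FPKM (limma adjusted p = 0.0878). Both were lower in each Fxr1 library, and Rn7sk had a difference of 0.22 after detrending. Of the 16 small and nuclear RNAs in the list 1 passed, AY036118, and 5 were lower without overlap (31.2%, near the 32.3% of all genes). The median was -0.30, against -0.17 without Fxr1 library 1 and 0.05 after detrending. Genes annotated as miscellaneous RNA took 4.99% to 5.39% of summed FPKM in the controls, 0.942% in Fxr1 library 1, and 2.89% and 3.05% in Fxr1 libraries 2 and 3. RP23-358K1.5, an unprocessed pseudogene, had 9.75, 9.40 and 11.0 FPKM in the controls and was listed at 0 in all Fxr1 and all sleep libraries (limma adjusted p = 0.000112). It passed the filter on mean FPKM only through the controls. Its Fxr1 values, all 0, add no spread to the test, so the p-value is not a measure of how sure the loss is.

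Transcripts were also tested one by one. Of 28837 tested, 258 passed (0.895%), 82 higher (0.284%) and 176 lower (0.61%) with GFP-Fxr1, in 212 genes, and 26 of those genes also passed as a gene. In 106 of the 212 the gene itself differed by less than 0.5 on the log2 scale, and in 23 genes one transcript passed upward and another downward. In Scn2b, a beta subunit of sodium channels, ENSMUST00000170998 had 88.7, 89.0 and 89.8 FPKM in the controls and 35.9, 57.7 and 47.7 FPKM with GFP-Fxr1. The other form, ENSMUST00000093855, was listed at 0 in all 3 controls and at 39.6, 38.5 and 45.3 FPKM with GFP-Fxr1 (limma adjusted p = 0.000189). The sum over the gene was nearly the same in both groups, with a log2 difference of -0.02. The sleep libraries, all of 1 group, had 0, 39.0 and 78.2 FPKM of the second form, so its level also differed between replicates of 1 group. Over the 258 transcripts, the sleep libraries lay on both sides of the midpoint between the 2 enforced wake groups in 154. Of the 258, 59 were listed at 0 in every library of 1 enforced wake group. These 59 passed the filter on mean FPKM only through the other group, and the values of 0 add no spread to their p-values. Among them are the Scn2b form above and the forms of Map7d1 and Camkv given below as 0 in the Fxr1 libraries.

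Ppt1, a lysosomal thioesterase, was steadier: ENSMUST00000030412 had 2.63, 2.30 and 3.87 FPKM in the controls, 49.7, 43.4 and 42.8 FPKM with GFP-Fxr1 and 44.0, 51.9 and 47.1 FPKM in sleep (limma adjusted p = 0.0018). Its forms ENSMUST00000120157 and ENSMUST00000097902 lay the opposite way, the first with 27.5, 25.7 and 23.8 FPKM against 0.162, 0.0782 and 0.177 FPKM and the second with 14.0, 14.1 and 13.6 FPKM against 1.4999, 2.36 and 1.69 FPKM (limma adjusted p = 0.000226 and 0.00388). The whole gene had a difference of 0.10 (limma adjusted p = 0.397). In Map7d1, a microtubule-associated protein, ENSMUST00000122129 had 34.2, 32.1 and 34.0 FPKM in the controls and was listed at 0 in the Fxr1 libraries, and ENSMUST00000061143 had 0, 0 and 0.203 FPKM against 15.7, 24.9 and 24.8 FPKM (limma adjusted p = 0.000189 and 0.00207). In the sleep libraries the first form had 0, 0 and 24.7 FPKM and the second 13.7, 24.5 and 0.152 FPKM, so 1 sleep library was like the controls and 2 were like the Fxr1 libraries.

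The values of 3 genes described above rest on only part of their transcripts. For Chrm1 the fall was in ENSMUST00000035444, at 28.0, 28.6 and 30.4 FPKM in the controls and 1.06, 3.03 and 4.16 FPKM with GFP-Fxr1 (limma adjusted p = 0.0261), while ENSMUST00000163785 had 5.19, 5.83 and 6.22 FPKM against 6.08, 6.88 and 6.21 FPKM (limma adjusted p = 0.534). For Trim2 it was in ENSMUST00000054990, at 69.6, 95.0 and 78.3 FPKM against 0.00773, 0 and 0.00623 FPKM (limma adjusted p = 0.000189), while ENSMUST00000107695 overlapped at 43.4, 49.7 and 46.6 FPKM against 46.4, 19.8 and 43.5 FPKM. For Rnf146 the forms ENSMUST00000161508 and ENSMUST00000162335 rose, the first from 0.276, 0.240 and 0.219 to 30.9, 10.2 and 23.4 FPKM and the second from 0.00892, 0 and 0 to 23.6, 18.4 and 12.6 FPKM (limma adjusted p = 0.0176 and 0.00275), and ENSMUST00000037548 fell from 10.5, 10.0 and 10.0 to 4.10, 3.85 and 3.19 FPKM (limma adjusted p = 0.017). Forms that share exons are divided by estimation, so a shift between 2 of them can be a change of the estimate, which was not tested. Other large transcript differences were in Atp6v0c, a proton pump subunit, whose form ENSMUST00000098862 had 222, 136 and 154 FPKM against 0.510, 1.36 and 1.16 FPKM, and in Gnas, the gene of the stimulatory G protein alpha subunit, where 3 forms fell. A further form of Gnas, ENSMUST00000186907, rose from 6.87, 6.65 and 7.15 to 110.2, 175 and 179 FPKM (limma adjusted p = 0.00165). In sleep this form spread widely, at 84.9, 171 and 10.4 FPKM. In Camkv, a kinase-like synaptic protein, ENSMUST00000193533 had 38.5, 38.3 and 41.2 FPKM in the controls and was listed at 0 in the Fxr1 libraries. The sleep libraries had 37.4, 0 and 32.7 FPKM of it, so its level also differed between replicates of 1 group.

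**Figure D5:**
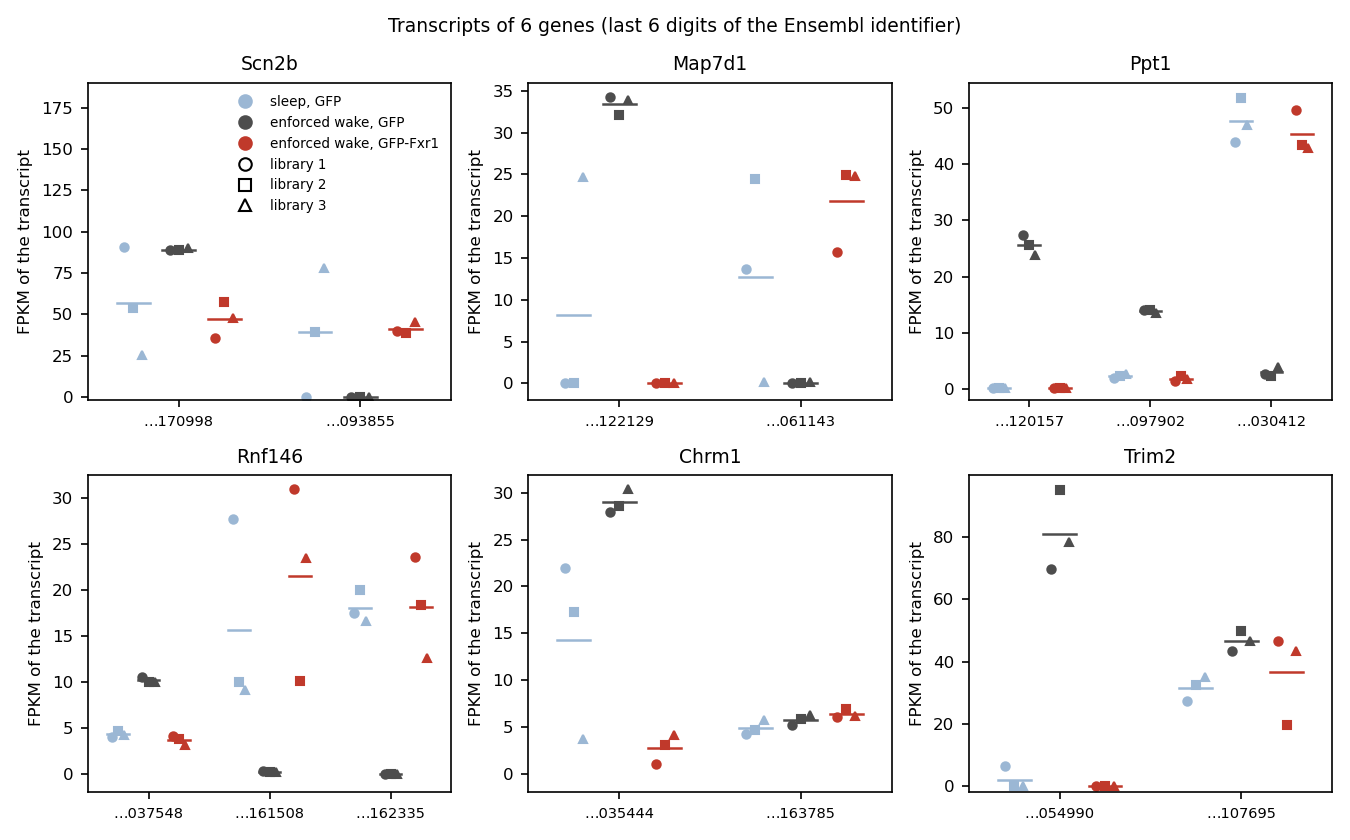
FPKM of single transcripts of 6 genes in sleep (light blue), enforced wake with GFP (grey) and enforced wake with GFP-Fxr1 (red), with points for libraries 1 to 3 and lines for group means. In Scn2b and Map7d1 the sleep libraries spread over both levels, and in Ppt1 and Rnf146 they lie with the Fxr1 libraries.

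In the authors' deposited table, 24 of 79087 transcripts with a q-value were below 0.05, 12 with a fold above 1 and 12 below 1. Of these 24, 13 had a mean FPKM that let them be tested here and 11 passed here as well. The smallest q-value in the authors' deposited table was that of ENSMUST00000108988 of Usp10, a deubiquitinase, at 0.00678 with a fold of 0.364. The Rac1 transcript has a fold of 3.48 and a q-value of 0.0272 in the authors' deposited table, and the Scn2b form that was 0 in the controls 46.3 and 0.0127. For Fxr1 the authors' deposited table gives folds of 1.84, 1.99 and 3.21 for the 3 forms named above, each with a q-value of 0.302 or more.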

How the data were processed

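Ribosome-bound RNA of 9 libraries was measured, and 6 were compared. Reads were processed with HISAT2 2.1.0, SAMtools 1.9 and StringTie 1.3.4d on GRCm38, per the submitters' processing notes. The authors deposited FPKM per transcript for each library, and beside it a fold, a p-value and a q-value of their own. The tool behind the deposited fold, p-value and q-value, the annotation release and the use of strand in counting are not given in the sources used here. Whole fragments are not in the files, so no count test was used.

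Transcript FPKM was summed by gene symbol, genes with a mean of at least 0.5 FPKM were kept, and log2(FPKM + 1) was tested with limma 3.58.1 (R 4.3.3; moderated by the mean level, 2-sided, Benjamini-Hochberg over all genes, threshold 0.05). A fold on this scale understates the change of low genes. Deposited fold values are quoted only as the authors' own. Detrending subtracted, per library, a spline of 5 degrees of freedom each in GC content and log length of the longest transcript. GENCODE on GRCm38 gave position, type and GC content for 98.9% of the deposited gene identifiers, and promoters are from RefSeq on GRCm38.p6. The fit was tested on simulated data with the same spread for all genes. Those data had no outlying library and no trend with GC content, unlike the libraries here. Gene groups come from 44 lists of 960 genes, of which 928 were tested.

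Named genes are a fixed set, the largest passing changes in each direction, up to 3 members of every list by their p, and the largest transcript changes, described here in part. The members and lists were chosen with earlier results of these data known. Alternatives were another pseudocount, filter, scaling, detrending, a replicate block, all 9 libraries, library weights, no level trend, and leaving out each library.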

Additional observations from a re-analysis of the deposited data

How the results depend on the processing

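The direction of all 60 passing genes was kept under each alternative except with detrending (56 of 60, and 59 without Fxr1 library 1 in the fit) and, where fewer genes were tested, a mean of at least 1 FPKM (all 50 left). The number passing was less stable than the direction, and the causes were not tested. It was 29 (18 lower) with a pseudocount of 0.1, 4 (1 higher, 3 lower) with no filter, 37 (26 lower) with a mean of at least 1 FPKM, and 36 (25 lower) with equal protein-coding totals. Centring on the median left 20 higher, detrending 27 lower, the fit on 9 libraries 3360 (979 and 2381), and library weights 6811 (2496 and 4315). The replicate block left 1 gene, a lower one, and 0 transcripts, and the block with detrending 1 gene, Rac1, with 0 lower. The labels do not say that replicate numbers pair libraries: deviations of same-numbered libraries correlated at 0.07, -0.067 and 0.167, and not every library correlated best with its own number. Leaving out each library in turn gave 2 to 3300 genes, 1 to 825 higher and 1 to 2475 lower, and 174 to 783 transcripts, beside 258. Library weights gave 425 transcripts. Genes higher without overlap numbered 4629 after centring and 3254 to 3865 with a library left out, and genes lower without overlap 1963 after detrending and 5023 to 5558 with a library left out, where fewer libraries overlap less often. Detrended without Fxr1 library 1, an alternative chosen after seeing the data, 285 passed (110 higher, 175 lower). Of the 44 list medians 28 kept their sign after detrending and 35 after centring. FPKM without counts gives no sampling error for single genes.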

Other observations

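After detrending, 18 genes passed that had not passed over the values as deposited. Those named here were chosen after their values were seen. Mapk14, the stress-activated kinase p38 alpha, had 15.7, 16.1 and 17.0 FPKM in the controls and 24.5, 30.7 and 27.3 FPKM with GFP-Fxr1. All 3 Fxr1 libraries were above the controls, and the detrended difference was 0.98 (limma adjusted p = 0.00656; 0.0585 as deposited). Tspan5, a tetraspanin that binds the protease ADAM10, had 84.8, 79.7 and 87.4 FPKM against 115, 127 and 118 FPKM, again without overlap, and a detrended difference of 0.55 (limma adjusted p = 0.0324).

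Ppp3cb, a catalytic subunit of the phosphatase calcineurin, had 125, 131 and 124 FPKM in the controls and 111, 94.4 and 93.3 FPKM with GFP-Fxr1. Here Fxr1 library 1 was the nearest of the 3 to the controls, and detrending moved the difference from -0.35 to -0.66 (limma adjusted p = 0.0147). Snrpb, a core protein of splicing particles, had 42.1, 42.8 and 43.3 FPKM against 24.8, 29.7 and 27.6 FPKM and a detrended difference of -0.49 (limma adjusted p = 0.0273). Zfyve27, the protein protrudin that promotes neurite growth, had 8.70, 8.21 and 8.88 FPKM against 1.43, 3.09 and 3.31 FPKM and -1.08 (limma adjusted p = 0.0273). The groups did not overlap in either gene. Pde4dip, an anchor of phosphodiesterase 4, overlapped as deposited, at 47.3, 45.9 and 47.8 FPKM against 42.5, 61.3 and 61.6 FPKM, with only library 1 of the Fxr1 group below the controls. Its difference was 0.21 as deposited, 0.38 without that library (limma adjusted p = 0.00927) and 0.64 after detrending (limma adjusted p = 0.0186).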
